A study of Mus musculus with 24 samples.

Results

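Mouse primary microglia that lack the co-receptor CD14 were exposed to fibronectin for 3 h and compared with untreated cells of the same genotype. The comparison rests on 6 of the 24 RNA-seq libraries of the study. The 3 fibronectin libraries and the 3 untreated libraries were taken by their library names, which give genotype, treatment and a replicate number from 1 to 3. The CD14-deficient cells carried the strain B6.129S4-Cd14tm1Frm/J, in which Cd14 is deleted in every cell, and the wild-type cells were C57BL/6. All cells came from animals labelled p0 (postnatal day 0). Treated cells received mouse fibronectin at 100 µg/ml, or LPS at 0.1 or 10 ng/ml, for 3 h, and each of the 8 groups held 3 libraries. The study's design text describes the libraries of a group as independent cell preparations.

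CD14 is a membrane-anchored protein that hands bacterial lipopolysaccharide (LPS) to the receptor complex of TLR4 and MD-2. TLR4 signals through the adaptor Myd88 to NF-kB and its cytokine genes, and through the adaptor Ticam1 (TRIF) to interferon beta and the genes that interferon induces. Fibronectin is a glycoprotein of plasma and extracellular matrix that binds integrins and reaches the brain where vessels leak. In microglia, the macrophages of the brain, it is one of the endogenous ligands studied as an activator of TLR4.

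Total counts ran from 14939019 to 20258255 per library in the 6 libraries, and 13294 of 18919 listed genes had enough counts to be tested. Levels are given as CPM, counts scaled to the effective library size, in the order of replicates 1, 2 and 3. Changes are on the log2 scale with their standard error (SE), so that 1 means 2-fold. A gene is said to have risen or fallen where the Benjamini-Hochberg adjusted p of edgeR's quasi-likelihood test was under 0.05. Cd14 itself, whose residual reads check the genotype labels, was at 3.05 to 5.25 CPM in the 6 CD14-deficient libraries and at 338 to 1150.2 CPM in the untreated wild-type libraries. With fibronectin it changed by 0.15 ± 0.50 (SE) in CD14-deficient cells (adjusted p = 0.974). Markers of microglia and macrophages summed to 13336.1 to 13903.3 CPM without and 14277.0 to 15195.4 CPM with fibronectin. These sums did not overlap, and their part in the results was not tested. In bulk RNA, fewer cells of a type and less RNA per cell cannot be told apart. The kit does not mark strand, so reads of overlapping genes cannot be told apart either. The sums for astrocytes, oligodendrocyte lineage, neurons and vascular cells overlapped between both groups. Replicate 2 carried the highest neuronal sum in both groups, and its part in the results was not tested.

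Without CD14, fibronectin still moved 2180 genes, of which 1227 rose and 953 fell. These are 9.23% and 7.17% of the genes tested (16.4% in all). The median change was 0.91 among rises and -0.85 among falls, but large changes were more often rises. A log2 change of at least 2 was reached by 260 risen and 76 fallen genes, and one of at least 3 by 136 and 16. Same-numbered libraries of both groups deviated together, and a fit that blocks on the replicate number called 5851 genes, 2860 higher and 2991 lower (44.0%, made up of 21.5% and 22.5%). All 2180 genes were among these. A fit of only these 6 libraries, without the block, called 1363. The libraries of both groups did not overlap for 4011 genes (30.2%, made up of 14.6% higher and 15.6% lower).

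The promoters of 4 genes that recur in the results are shown first. All 4 rose without CD14 and had a larger fitted change in wild type. Without CD14 and in wild type, Cxcl1 changed by 6.79 and 8.875 and Nfkbia by 3.56 and 4.63. Cxcl10 changed by 3.42 and 10.06, and Ifit1 by 1.57 and 8.91. Cxcl1 encodes a neutrophil chemokine and Nfkbia the NF-kB inhibitor IkBa, while Cxcl10 encodes a T cell chemokine and Ifit1 an antiviral protein. Each line gives the 250 bases before the RefSeq gene start (GRCm38.p6), read 5′ to 3′ on the gene's strand. The windows are chr5:90890995-90891244 (plus strand) for Cxcl1, chr12:55492648-55492897 (minus strand) for Nfkbia, chr5:92348890-92349139 (minus strand) for Cxcl10 and chr19:34640639-34640888 (plus strand) for Ifit1. Capitals mark matches on either strand to the kB motif (GGG, then 5 free bases, then CC) or to the interferon-response motif (GAAA, then 2 free bases, then GAAA), overlapping matches run together.
Cxcl1: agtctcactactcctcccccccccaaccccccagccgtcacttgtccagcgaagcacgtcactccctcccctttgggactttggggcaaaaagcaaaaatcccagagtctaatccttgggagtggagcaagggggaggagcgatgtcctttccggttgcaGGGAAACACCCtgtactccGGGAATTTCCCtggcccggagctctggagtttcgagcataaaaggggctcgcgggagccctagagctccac
Nfkbia: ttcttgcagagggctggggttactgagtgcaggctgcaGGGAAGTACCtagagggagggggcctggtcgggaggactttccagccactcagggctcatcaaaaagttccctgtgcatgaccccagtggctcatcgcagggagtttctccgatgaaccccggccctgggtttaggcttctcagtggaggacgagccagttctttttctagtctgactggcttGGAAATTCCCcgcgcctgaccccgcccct
Cxcl10: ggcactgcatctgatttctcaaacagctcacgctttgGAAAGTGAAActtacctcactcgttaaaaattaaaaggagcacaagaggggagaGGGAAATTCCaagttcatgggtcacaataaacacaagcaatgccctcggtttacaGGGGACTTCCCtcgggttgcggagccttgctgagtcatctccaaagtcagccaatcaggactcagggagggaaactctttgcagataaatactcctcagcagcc
Ifit1: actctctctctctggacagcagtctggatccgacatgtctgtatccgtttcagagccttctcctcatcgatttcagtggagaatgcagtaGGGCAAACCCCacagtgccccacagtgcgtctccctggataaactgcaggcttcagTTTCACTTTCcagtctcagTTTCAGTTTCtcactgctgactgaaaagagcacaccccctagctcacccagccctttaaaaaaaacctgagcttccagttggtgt

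The windows of Cxcl1 and Nfkbia held kB matches only, and those of Cxcl10 and Ifit1 held both motifs. The window of Gbp5, not shown, held both motifs as well, and Gbp5 rose by 3.65 without CD14. The kB motif was in 48.7% of all 27025 genes in the promoter table, in 66.4% of the 9418 tested genes with a promoter in the table, and in 69.2% of the 890 matched genes that rose without CD14. The share among risen genes was thus close to that of all tested genes. The interferon-response motif was in 3.46% of all genes in the table and in 3.36% of the matched tested genes. It was in 3.6% of the matched risen and 2.35% of the matched fallen genes. Among the 187 matched genes that rose without CD14 by at least 2 on the log2 scale it was in 6.42%, and the kB motif in 62%. A further 738 matched genes rose in wild type, did not pass the test without CD14 and had a smaller change there. Of these, 8.13% held the interferon-response motif and 71.5% the kB motif. These matches describe letters in a window and not binding.

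Chemokines and cytokines were among the largest rises. Cxcl2 rose by 6.85 ± 1.02, Cxcl1 by 6.79 ± 0.79 and Cxcl3 by 6.56 ± 1.34, all of them ligands that draw neutrophils. Tnf, the early inflammatory cytokine, rose by 5.80 ± 0.52 and Il1b by 5.31 ± 0.49. Il6 did not pass the test. The 15 largest rises among genes with at least 5 CPM also included Irg1, Ptges, Cd69, Traf1, Olr1, Clec4e, Socs3, Gpr84, Dusp2 and Adm.

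Tnf (chr17:35199381-35202007, minus strand) stood at 25.8, 14.3 and 29.4 CPM untreated and at 1543.1, 941 and 1374.9 CPM with fibronectin (adjusted p = 3.1e-07). Cxcl1 (chr5:90891241-90893115) stood at 0.434, 0.293 and 0.61 CPM untreated and at 52.1, 23.8 and 70.1 CPM with fibronectin (adjusted p = 7.6e-06). In both genes replicate 2 was the lowest library of its group, with and without fibronectin, and the groups lay far apart. Cxcl2 went from 7.57, 2.38 and 2.61 to 795, 216 and 433 CPM (adjusted p = 1.0e-04). Il1b went from 14.4, 15.7 and 14.4 to 645, 483 and 637 CPM (adjusted p = 4.4e-07). Untreated levels of Il1b hardly differed between preparations, whereas those of Cxcl2 were highest in replicate 1.

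**Figure D1:**
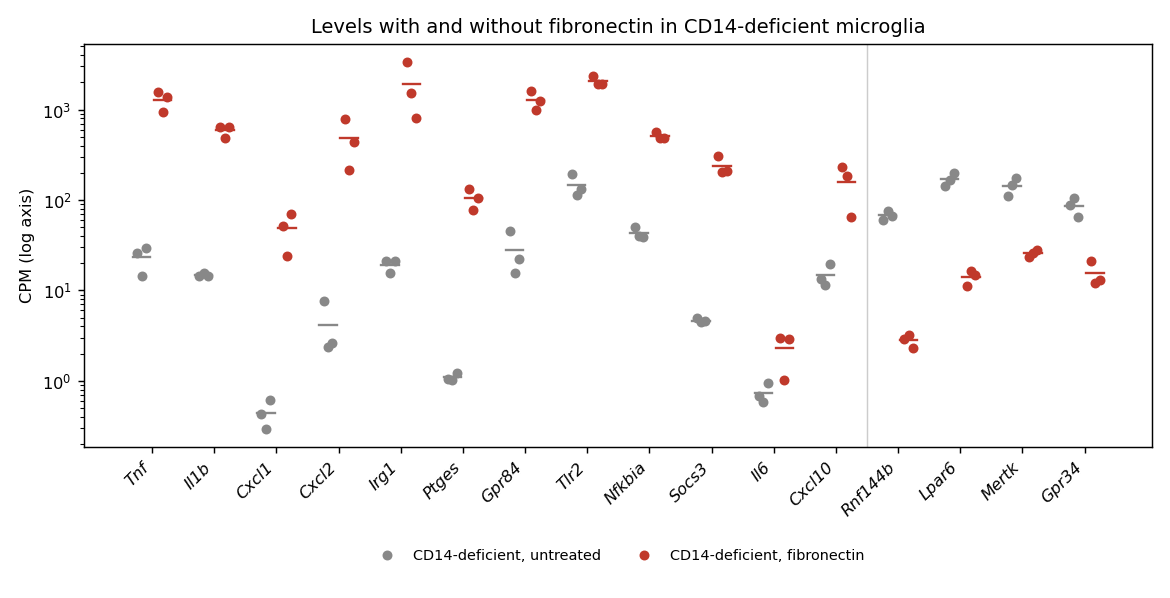
CPM on a log axis of 16 genes in the 3 untreated (grey) and 3 fibronectin (red) CD14-deficient libraries, each point a library and each bar the group mean. Genes left of the grey line were higher with fibronectin and those on its right lower. Il6 is the only gene shown that did not pass the test.

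Of 22 tested cytokine genes, 13 rose and none fell (median change 1.98, and 15 and 1 with the block), against 9.23% of all tested genes higher and a median of -0.02. Il12b, a subunit of IL-12 and IL-23, went from 2.46, 2.82 and 2.16 to 63.2, 32.3 and 20.9 CPM (3.96 ± 0.63, adjusted p = 2.2e-04). Il1a rose by 3.65 ± 0.55, Tnfsf9 by 4.18 ± 0.50, Csf1 by 1.41 ± 0.27, Ebi3 by 1.23 ± 0.34 and Il27 by 2.31 ± 0.41. Il10, the anti-inflammatory cytokine, rose by 1.85 ± 0.44 at a very low level, with means of 0.0897 and 0.346 CPM. Csf3, which drives neutrophil production, had 0 counts in the 3 untreated libraries together and 26 with fibronectin, at least 9.48-fold higher against a floor of 3 counts over the group, with an exact lower limit of 7.18-fold once the counting error of both groups enters. Il23a had 2 and 47 counts (25.7-fold, 95% exact interval 6.73 to 219, counting error only) and Csf2 had 1 and 27 (29.5-fold, 4.87 to 1209.8). Il23a lost its call without fibronectin replicate 3 or untreated replicate 1 or 2 (adjusted p up to 0.248), and Csf2 without any library but fibronectin replicate 2 (up to 0.297).

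Il6 (chr5:30013114-30019981), the acute-phase cytokine, stood at 0.675, 0.587 and 0.943 CPM untreated and at 2.98, 1.02 and 2.88 CPM with fibronectin (1.64 ± 0.65, 95% interval 0.28 to 2.99, adjusted p = 0.0992). All 3 treated libraries lay above the untreated ones, the nearest by a small margin. DESeq2 gave an adjusted p of 0.0278, the fit with the replicate block 0.184, and a blocked fit of these 6 libraries alone, added after seeing the data, 0.00149. Ifnb1, which encodes interferon beta, was at 0.241, 0.147 and 0.333 CPM untreated and at 0.837, 0.448 and 0.3 CPM with fibronectin (1.17 ± 0.82, interval -0.55 to 2.88, adjusted p = 0.413), and both groups overlapped. Il15 (0.39 ± 0.30) and Tgfb1 (0.48 ± 0.23), both well expressed, did not pass either. Tgfb1 did with the replicate block (adjusted p = 2.3e-05). The number of cytokines that rose was 7 when only the 6 libraries were fitted and 8 with limma on the authors' normalized values.

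Of 22 tested chemokine genes, 14 rose and none fell (median 2.25). For cytokines, chemokines, feedback inhibitors, interferon-stimulated and costimulatory genes, DESeq2, limma and edgeR at an unadjusted p under 0.05 gave 0 fallen members as well. The replicate block did call falls there, in the cytokine Osm (-0.71 ± 0.35 without the block, adjusted p = 0.0393 with it), the chemokine Cxcl14 and the antigen-loading genes H2-DMa (0.0215) and H2-DMb1 (0.0422). The chemokines Ccl3 and Ccl4, which microglia make in quantity, rose by 3.54 ± 0.31 and 3.54 ± 0.29, from means of 133 and 111 to 1539.1 and 1297.4 CPM. Ccl2 and Ccl7, which draw monocytes, rose by 2.65 ± 0.59 and 1.79 ± 0.49. Ccl5 went from 4.34, 3.45 and 4.27 to 85.4, 58.7 and 22.2 CPM (3.79 ± 0.60), and Cxcl10 from 13.5, 11.4 and 19.8 to 232, 182 and 65.4 CPM (3.42 ± 0.57). For Ccl5 and Cxcl10 replicate 3 had the lowest fibronectin level, while for Cxcl1 it had the highest. Cxcl16 rose by 1.58 ± 0.25, Ccl9 by 1.77 ± 0.35 and Cx3cl1, the ligand of Cx3cr1, by 3.35 ± 0.65. Cxcl5 had 0 counts untreated and 19 with fibronectin, at least 6.93-fold higher against the same floor, with an exact lower limit of 5.11-fold. Ccl22 (1.64 ± 0.65), Cxcl9 (1.86 ± 0.70) and Cxcl11 (-0.27 ± 0.66) did not pass, nor did Ccl6 (0.16 ± 0.71) and Cxcl14 (-0.50 ± 0.31). Cxcl14 passed with the replicate block (adjusted p = 2.6e-05) and Ccl22 without untreated replicate 1 (0.0253).

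NF-kB genes rose as a whole list. All 11 tested subunits and inhibitors passed (median 2.76). The inhibitor Nfkbia went from 50.1, 39.9 and 39.4 to 564, 479 and 481 CPM (3.56 ± 0.25, adjusted p = 2.9e-08). The atypical inhibitors Nfkbiz and Bcl3, which act in the nucleus, rose by 3.96 ± 0.29 and 3.43 ± 0.28, and Nfkbie by 3.71 ± 0.31. Among subunits Nfkb2 rose by 2.78 ± 0.17, Relb by 2.76 ± 0.15, Nfkb1 by 2.41 ± 0.18, Rel by 1.98 ± 0.26 and Rela by 0.97 ± 0.16. Summed over the list, levels were 457 to 534 CPM untreated and 2900.2 to 3249.5 CPM with fibronectin, a narrow spread within each group.

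Feedback inhibitors of the pathway followed, with 19 of 24 risen and none fallen (median 1.66). Socs3, a brake on cytokine receptor signalling, went from 4.92, 4.44 and 4.55 to 307, 202 and 208 CPM (5.69 ± 0.50). Traf1 rose by 5.97 ± 0.63 and Dusp2, a MAP kinase phosphatase, by 5.41 ± 0.51. Tnfaip3 (A20), which removes ubiquitin from signalling proteins, rose by 2.78 ± 0.32, its partner Tnip1 by 2.86 ± 0.26, Tnip3 by 3.26 ± 0.62 and the RNase Zc3h12a by 2.80 ± 0.28. Socs1, which restrains interferon receptors, stood at means of 0.762 and 1.96 CPM and did not pass (1.39 ± 0.67, adjusted p = 0.186). Tnip2 (0.05 ± 0.13) and Cyld (0.27 ± 0.11) did not pass. Cyld did with the replicate block (adjusted p = 0.0091) and without untreated replicate 3 (0.0477).

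The TLR4 signalling chain itself moved less. Of 26 tested members 9 rose and 2 fell, against 9.23% and 7.17% of all tested genes. With the replicate block 15 and 4 passed, against 21.5% and 22.5%. Ikbke, a kinase of the interferon branch, rose by 3.33 ± 0.35, Irak3 by 1.94 ± 0.24, Irak2 by 1.92 ± 0.29, Myd88 by 1.26 ± 0.19 and Ticam1 by 1.25 ± 0.22. Cd180, a TLR4 relative that restrains LPS signalling, fell by 0.80 on the log2 scale (SE 0.23). Tlr4 was at means of 98.2 and 60.1 CPM (-0.71 ± 0.32, adjusted p = 0.156, 0.00114 with the block). Ly86, the partner of Cd180 (-0.34 ± 0.25), and Tab2 (0.50 ± 0.21) passed only with the block (adjusted p = 0.00337 and 0.00368). The number of fallen members was 1 without fibronectin replicate 2 or 3 or untreated replicate 1 or 3.

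Among other Toll-like receptors Tlr2, which recognises lipopeptides, stood out. It went from 195, 114 and 131 to 2323.7, 1935.6 and 1899.9 CPM (3.80 ± 0.32, adjusted p = 1.3e-07). Its partner Tlr1 rose by 1.94 ± 0.35. The endosomal receptors Tlr8 and Tlr7 fell, by 1.75 (SE 0.32) and 0.81 (SE 0.21) on the log2 scale. Tlr7 did not pass without fibronectin replicate 2 or 3 (adjusted p = 0.0583 and 0.0589). Tlr13 (-0.80 ± 0.30, adjusted p = 0.0806) passed with the block (0.00154) and without untreated replicate 2 (0.0412), and Tlr9 did not pass (-0.30 ± 0.34).

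Receptors for fibronectin included the integrin subunit Itga5, part of the classical fibronectin receptor, which went from 187, 209 and 320 to 904, 1161.0 and 1408.3 CPM (2.28 ± 0.26, adjusted p = 4.9e-06). Both groups kept the same order of replicates. The heparan sulfate proteoglycan Sdc4 rose by 3.27 ± 0.45. Itga4 rose by 1.27 ± 0.39, but not without fibronectin replicate 1 or 2 or untreated replicate 2 or 3 (adjusted p 0.0619 to 0.175). Itgb5 fell by 0.84 (SE 0.12) and Itgb3 by 1.18 (SE 0.31) on the log2 scale, the latter not without fibronectin replicate 3 (adjusted p = 0.0744). In all, 3 of 12 tested members rose and 2 fell, against 9.23% and 7.17% of all tested genes. With the block it was 5 and 2, against 21.5% and 22.5%. Fn1, the gene of fibronectin itself, was at 1020.8, 223 and 223 CPM untreated and at 1526.7, 423 and 385 CPM with fibronectin. The preparations differed more than the treatment (0.67 ± 0.79, adjusted p = 0.708), and within each number the treated library was higher, with an adjusted p of 1.6e-04 with the block. Itgb1 (0.23 ± 0.19) passed with the block alone (adjusted p = 0.0197).

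Genes of inflammatory mediators and metabolism rose in 15 of 23 cases and fell in 2, against 9.23% and 7.17% of all tested genes. Irg1, also named Acod1 (chr14:103046977-103056573), makes itaconate and went from 21.1, 15.5 and 21.1 to 3327.7, 1538.0 and 816 CPM (6.62 ± 0.71). Ptges, the inducible prostaglandin E synthase, went from 1.06, 1.03 and 1.22 to 131, 77.4 and 106 CPM (6.56 ± 0.51). Ptgs2, the cyclooxygenase upstream of it, rose by 4.57 ± 0.51, and Nos2, the inducible nitric oxide synthase, by 4.74 ± 0.64, its fibronectin levels being 5.58 to 13.1 CPM. Genes of the oxidative stress response rose too, Txnrd1 by 2.48 ± 0.21, Srxn1 by 2.36 ± 0.19, Gclm by 1.796 ± 0.23 and Hmox1 by 1.04 ± 0.26. The glucose transporter Slc2a1 rose by 2.06 ± 0.27. The hexokinase gene Hk2 fell by 1.05 (SE 0.24, adjusted p = 0.00479) on the log2 scale. Hk1 fell by 0.57 (SE 0.19), near the threshold (adjusted p = 0.0453). The glycolysis genes Ldha (-0.09 ± 0.33) and Pfkfb3 (0.25 ± 0.36) did not pass. Without fibronectin replicate 1 or 3 or untreated replicate 2, the number of fallen members was 1. That number was also 1 without a low-count filter, with a filter of 5 CPM in 3 libraries, and with only the groups compared.

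In the list of MHC class II and costimulation genes, 7 of 13 tested members had risen and none had fallen (8 and 2 with the block). None of the tested MHC class II genes, Cd74, H2-Ab1, H2-Eb1, H2-DMa and H2-DMb1, was among the 7. Cd69 rose by 6.15 ± 0.46, Icam1, the adhesion ligand of leukocyte integrins, by 4.57 ± 0.34, Icosl by 4.26 ± 0.33 and Cd40 by 4.22 ± 0.54. Cd86 did not pass (-0.13 ± 0.23), and Cd74, the MHC class II invariant chain, passed with the block alone (1.24 ± 0.71, adjusted p = 0.282, 4.3e-05 with the block). Of 19 G protein-coupled receptors 6 rose and 5 fell (8 with the block, and 3 without fibronectin replicate 2). Among all tested genes 9.23% rose and 7.17% fell (21.5% and 22.5% with the block). Gpr84, a receptor for medium-chain fatty acids, went from 45.4, 15.6 and 22.4 to 1583.7, 984 and 1239.3 CPM (5.51 ± 0.56). The adenosine receptors Adora2a and Adora2b rose by 4.46 ± 0.66 and 3.98 ± 0.55 from under 1 CPM, and Fpr1 by 4.72 ± 1.41, the last not without fibronectin replicate 1 or untreated replicate 2 or 3 (adjusted p up to 0.119). C5ar1 (0.77 ± 0.44) passed with the block alone (8.3e-04).

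The largest fall was that of Rnf144b, a ubiquitin ligase gene (chr13:47122656-47247991). It went from 60.8, 76 and 67.1 to 2.93, 3.21 and 2.28 CPM, and fell by 4.59 (SE 0.60) on the log2 scale (adjusted p = 2.5e-05). Lpar6, a lysophosphatidic acid receptor, went from 143, 168 and 197 to 11.1, 16.5 and 14.9 CPM, and Cnr2, the peripheral cannabinoid receptor, from 42.9, 38.5 and 36.7 to 4.55, 4.92 and 3.24 CPM. These 3 genes differed little between preparations. Arrdc3, Cytip, Engase, Thbd (thrombomodulin), Rtn4rl1, Cables1 and Fbxo32 also fell by 3.18 to 3.46 on the log2 scale. Cxcr4 fell by 2.62 (SE 0.71), but not without fibronectin replicate 1 or 2 or untreated replicate 3 (adjusted p 0.0517 to 0.0755). Thbs1, an adhesive matrix protein, fell by 2.64 (SE 0.41) while the metalloproteinase Mmp14 rose by 3.70 ± 0.65 and the aggrecanase Adamts4 by 3.92 ± 0.71. Of 22 protease and coagulation genes 6 rose and 4 fell, against 9.23% and 7.17% of all tested genes. Adam8 (-0.03 ± 0.16) and Plau (-0.19 ± 0.51) did not pass.

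Genes of the homeostatic microglial state fell in part. Of 25 tested, 8 fell and none rose (1 at an unadjusted p under 0.05 in edgeR, 0 by DESeq2 and limma), against 7.17% of all tested genes lower, and 14 fell and 1 rose with the block. Mertk, a receptor for the engulfment of dying cells (chr2:128698956-128802894), went from 112, 145 and 173 to 23.2, 26.2 and 27.9 CPM (-2.48 ± 0.25, adjusted p = 1.5e-06). Gpr34 fell by 2.49 (SE 0.26), P2ry13 by 2.48 (SE 0.52), Cebpa by 1.94 (SE 0.34), Mef2c by 1.52 (SE 0.23), Entpd1 by 0.98 (SE 0.19) and Irf8 by 0.83 (SE 0.15) on the log2 scale, the transcription factors Cebpa, Mef2c and Irf8 among them. Cx3cr1, the fractalkine receptor, was at 1195.4, 973 and 968 CPM untreated and at 1103.4, 1081.5 and 981 CPM with fibronectin (0.01 ± 0.21, interval -0.42 to 0.45). Csf1r (0.43 ± 0.20, 2.7e-05 with the block) passed with the block alone.

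Cell cycle genes had 0 of 28 called by edgeR, DESeq2 and limma, and 1 was lower at an unadjusted p under 0.05 in edgeR (8 lower with the block, and 1 without fibronectin replicate 1). They summed to 2811.4, 1436.1 and 779 CPM untreated and 2742.8, 1348.9 and 582 CPM with fibronectin, replicate 1 being the highest and replicate 3 the lowest in both groups. Mki67 (0.27 ± 0.87) and Top2a (0.26 ± 0.87) did not pass. For this list and those that follow here, the shares of all tested genes were 9.23% higher and 7.17% lower (21.5% and 22.5% with the block). Of 23 immediate early genes, measured at 3 h, Maff rose by 3.28 ± 0.45, Ier3 by 2.51 ± 0.44, Junb by 2.08 ± 0.26 and Btg2 by 0.92 ± 0.26, while Nr4a1, Klf4 and Jun fell (7 and 7 with the block). Nr4a1 (-2.27 ± 0.63) did not pass without fibronectin replicate 1 or 3 or untreated replicate 3 (adjusted p up to 0.114), where 1 listed gene fell in place of 3. Klf6 did not pass (-0.01 ± 0.27), and Atf3 (0.56 ± 0.23, adjusted p = 0.12) passed without untreated replicate 3 (0.0422). In the unfolded protein list 4 of 18 rose (10 with the block, 2 without untreated replicate 2): Herpud1 by 3.19 ± 0.37, Chac1 by 2.28 ± 0.61, Atf4 by 0.84 ± 0.24 and Hspa5 by 0.59 ± 0.15. Herpud1 kept its call in each of the 6 omissions, whereas Chac1 lost it without untreated replicate 2 (adjusted p = 0.0718), Hspa5 without fibronectin replicate 2 (0.0535) and Atf4 without any library but fibronectin replicate 2 and untreated replicate 3 (up to 0.112). Calr (0.09 ± 0.26) and Hsp90b1 (-0.03 ± 0.21) did not pass.

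Phagocytic and scavenger receptors had 2 risen and 2 fallen of 25 (6 and 10 with the block). Of all tested genes 9.23% rose and 7.17% fell (21.5% and 22.5% with the block), so 2 and 2 were near those shares. Trem1, an amplifier of inflammation, rose by 2.56 ± 0.54 and Mertk fell. C3ar1 rose by 0.71 ± 0.23, but not without fibronectin replicate 1 or 3 or untreated replicate 1 or 2 (adjusted p up to 0.244). Scarb2 fell by 0.54 (SE 0.17) on the log2 scale, but not without fibronectin replicate 1 or 3 or untreated replicate 2 or 3 (up to 0.116). Stab1 (-0.32 ± 0.28) passed with the block alone (0.00438) and Cd36 did not pass (-0.07 ± 0.58). Among 25 sterol and lipid genes Dhcr7 fell by 0.74 (SE 0.16), and Srebf2 rose by 0.53 ± 0.18 but lost the call in each of the 6 omissions of a library (adjusted p up to 0.131). With the block 4 rose and 7 fell, against 21.5% and 22.5% of all tested genes, Abca1 (0.77 ± 0.28, 2.7e-06) among the higher.

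Interferon-stimulated genes changed far less with fibronectin without CD14 than in wild type. In CD14-deficient cells 9 of 44 rose with fibronectin (median 0.44, 12 with the block, and 23 in a blocked fit of these 6 libraries alone that was added after seeing the data), namely Ifit1, Mx2, Irf1, Gbp2, Gbp3, Gbp5, Gbp7, Slfn2 and Slfn8. Among all tested genes 9.23% rose in that comparison (21.5% with the block). In wild-type cells all 44 rose (median 5.78), where 23.7% of all tested genes were higher (26.5% lower, 50.2% in either direction). Summed over the list, CD14-deficient levels were 1019.2, 1641.8 and 1175.7 CPM untreated and 2671.0, 2507.0 and 2126.4 CPM with fibronectin. Wild-type cells with fibronectin had 65588.3 to 89085.0 CPM, and CD14-deficient cells with LPS at 10 ng/ml had 10383.9 to 26530.9 CPM. With that LPS dose 41 of 44 rose, where 42.9% of all tested genes were called (21.2% higher, 21.6% lower). In this sum the fibronectin libraries without CD14 thus lay above their untreated ones and below all libraries of both other treatments. Slfn2 alone went from a mean of 143 to 845 CPM without CD14, a large part of the rise in the sum. Whether the sums lie apart without Slfn2 was not tested.

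**Figure D2:**
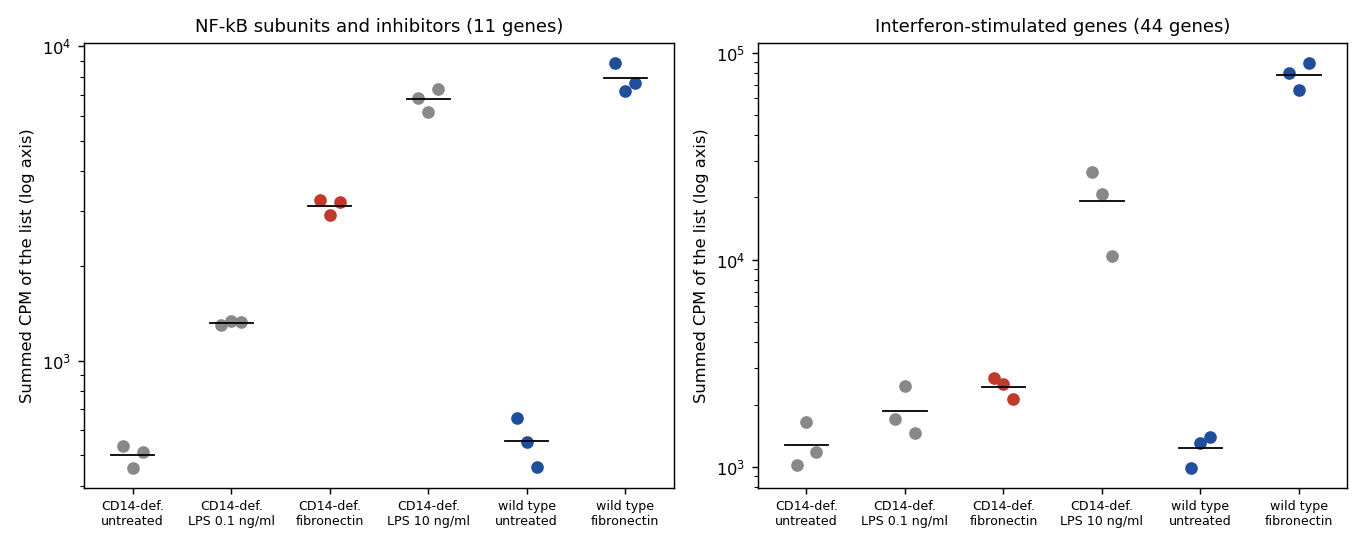
Summed CPM on a log axis of the NF-kB list (left) and the interferon-stimulated list (right) in 6 groups, each point a library and each bar the group mean, fibronectin without CD14 in red and wild type in blue. Without CD14 the fibronectin libraries lie between both LPS doses for NF-kB genes, and at 2126.4 to 2671.0 CPM, overlapping LPS at 0.1 ng/ml, for interferon-stimulated genes.

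The size of the difference between genotypes was tested as an interaction, the log2 change without CD14 minus that in wild type. It was called for 3069 genes (23.1%), 1564 higher and 1505 lower (11.8% and 11.3%). The block called it for 6553 genes (49.3%, 26.1% higher and 23.2% lower). For 43 of 44 interferon-stimulated genes the change was smaller without CD14, the exception being Oas1g (-3.91, adjusted p = 0.0665), which passed with the block (1.2e-07). Rsad2, an antiviral enzyme, changed by 1.15 ± 0.45 without CD14 (adjusted p = 0.0967) and by 9.51 in wild type. Gbp5, a guanylate-binding protein, went from 3.33, 3.12 and 4.38 to 53.6, 47.5 and 34.5 CPM without CD14 (3.65 ± 0.45), and still its change was smaller, with an interaction of -6.06 ± 0.63. Slfn2 had the smallest such gap among the 9 that rose, with 2.56 ± 0.22 against 4.56 ± 0.24. The well-expressed Bst2 (-0.18 ± 0.32) and Slfn5 (0.42 ± 0.37) did not pass without CD14.

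Of the 3153 genes that rose in wild type, 33.0% also rose without CD14 and 45.8% had a change called smaller there. These genes were selected by their wild-type rise, which also enters the interaction. Both shares, and the list counts below, therefore lean towards a smaller change without CD14. The lists spread on both sides of those shares. All 11 NF-kB genes rose in both genotypes, 8 with a smaller change without CD14. Of 24 feedback inhibitors that rose in wild type, 19 also rose without CD14 and 18 were smaller. For cytokines it was 13 and 16 of 21, for chemokines 14 and 13 of 20, for MHC class I genes 3 and 13 of 16, and for interferon-stimulated genes 9 and 43 of 44. In the MHC class I list H2-K1 rose by 0.64 ± 0.13 without CD14, H2-Q4 by 1.16 ± 0.39 and Tapbpl by 0.51 ± 0.14, and 6 rose with the block. H2-Q4 lost its call without any library but untreated replicate 1 (adjusted p up to 0.172), and Tapbpl without fibronectin replicate 1 or 3 or untreated replicate 3 (up to 0.0909), each of which left 1 risen member. B2m (0.10 ± 0.18) and H2-D1 (0.19 ± 0.14) did not pass.

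**Figure D3:**
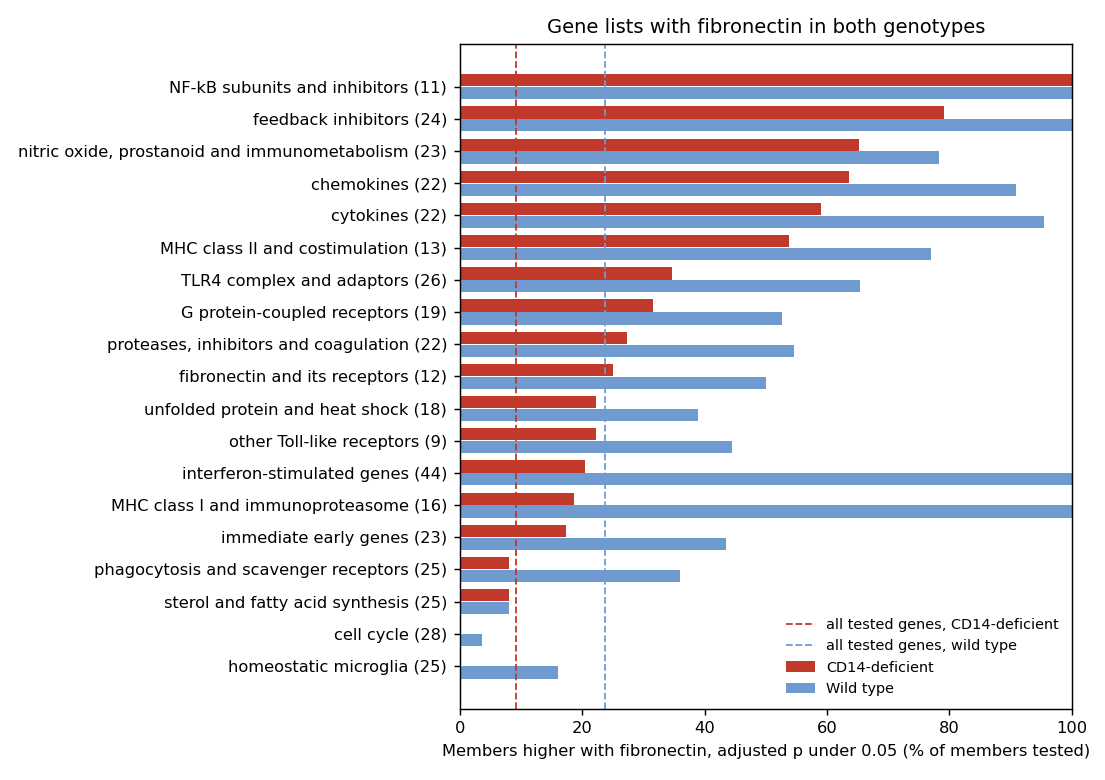
Share of tested members (number in brackets) that were higher with fibronectin at an adjusted p under 0.05, in CD14-deficient (red) and wild-type (blue) cells, with dashed lines at 9.23% and 23.7% for all tested genes. NF-kB genes reach the full share in both genotypes, and interferon-stimulated genes in wild type only, with 9 of 44 without CD14.

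Cytokines differed by gene. Il6 changed by 10.46 in wild type, to 485 to 694 CPM, with an interaction of -8.83 ± 0.98. Ifnb1 had an interaction of -10.41 ± 1.35, its wild-type fibronectin levels being 153 to 199 CPM and its wild-type untreated total 3 counts. Il12b differed by -6.33 ± 0.88, Cxcl10 by -6.64 ± 0.80, Ccl5 by -4.76 ± 0.81 and Tnf by -2.36 ± 0.61. Cxcl11 differed by -9.53 ± 0.96. Pla1a, a lipase, had 0 and 811 counts in untreated and treated wild-type cells and 3 and 10 without CD14, so that its fitted interaction of -9.78 ± 1.63 depends on the prior count. Serping1 (-9.11 ± 2.64) and Lipg (-9.04 ± 2.77) rested on at most 1 count in each CD14-deficient group, and lost the call without untreated CD14-deficient replicate 2 (adjusted p = 0.989 and 1). Lipg also lost it with the block (0.0884).

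Other genes changed to a similar extent in both genotypes, and for these the interval of the interaction bounds the difference. Tlr2 changed by 3.80 and 3.90 (interaction -0.10, interval -0.94 to 0.75). Gpr84 changed by 5.51 and 4.97 (0.54, interval -0.84 to 1.93), Icosl by 4.26 and 3.79 (0.47, -0.40 to 1.34) and Itga5 by 2.28 and 2.48 (-0.20, -0.93 to 0.53). Ikbke (-0.18, -1.12 to 0.76) and Irak3 (0.16, -0.51 to 0.84) were close too. For Cxcl2 (-0.73, -3.12 to 1.66), Clec4e, a receptor for damaged cells (-0.75, -2.51 to 1.01), and Olr1, a scavenger receptor (-0.60, -2.39 to 1.19), the intervals were wide. All intervals here are from the fit without the block. With it the interactions of these 3 genes were -0.916 (SE 0.614), -0.907 (SE 0.435) and -0.680 (SE 1.197). None of them passed (adjusted p = 0.241, 0.102 and 0.674). Cxcl1 (-2.09 ± 1.07) and Ptges (-1.18 ± 0.61) did not pass the interaction test at adjusted p of 0.19 and 0.198.

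**Figure D4:**
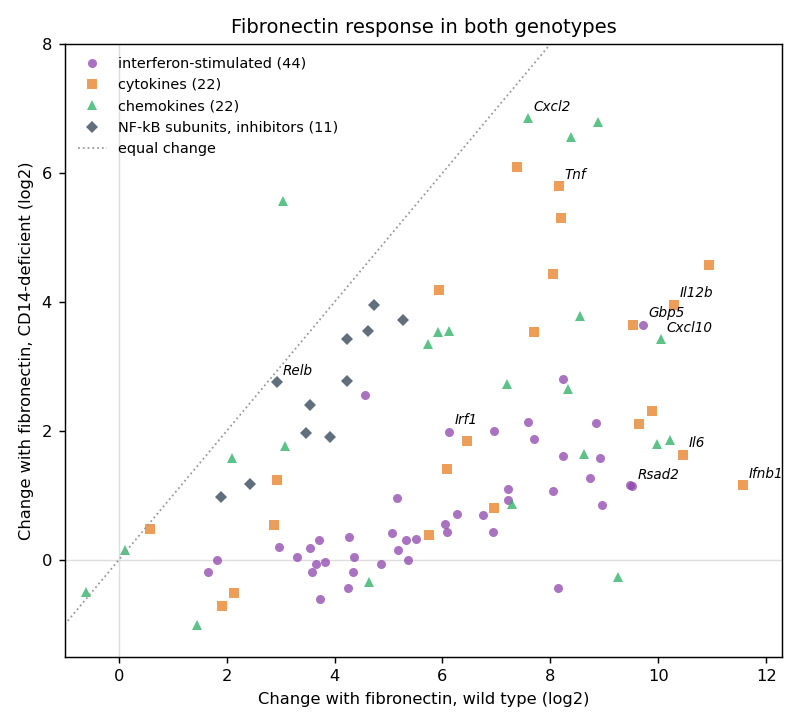
Log2 change with fibronectin without CD14 (vertical) against that in wild type (horizontal) for the tested members of 4 lists, with the dotted line at equal change. NF-kB genes have medians of 2.76 and 3.91, and interferon-stimulated genes 0.44 and 5.78. Fitted changes of genes with no untreated counts (Csf3 and Cxcl5 without CD14, Il23a in wild type) are not bounds.

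Of the 1227 genes that rose without CD14, 1039 also rose in wild type, 39 fell there and 149 did not pass. Their median change was 0.91 against 1.39 in wild type, and 393 had a change called smaller without CD14 and 117 one called larger. Among the larger were the oxidative stress genes Srxn1 (2.36 against 1.07, interaction adjusted p = 9.3e-04), Gclm (1.796 against 0.55, 0.00729) and Hmox1 (1.04 against -0.01, 0.0451). The oxidative stress gene Txnrd1 did not pass the interaction test (-0.35, adjusted p = 0.48). Neither did Sqstm1 (-0.25), Slc7a11 (-1.385) and Nqo1 (0.81) of the same list. Of the 23 tested genes of that list, 3 had an interaction called higher and 8 one called lower. Of the 953 fallen genes 809 also fell in wild type and 43 rose, with medians of -0.85 and -1.41. Falls were deeper in wild type for Bmf, a cell death gene, Cd300lb, a myeloid receptor, Sesn1, a stress-induced growth inhibitor, and Lyl1, a transcription factor, with interactions of 5.45 ± 0.75, 5.16 ± 0.47, 4.11 ± 0.41 and 3.92 ± 0.38. Without CD14, Bmf (-1.07 ± 0.47) and Cd300lb (-0.85 ± 0.31) passed with the block alone (0.00341 and 0.0057), Sesn1 fell by 1.33 (SE 0.28), and Lyl1 fell by 0.96 (SE 0.26) but not without fibronectin replicate 1 (0.0516). With the block 1191 rises and 1359 falls were smaller without CD14, and 459 and 380 larger.

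Of the 13294 genes tested, fibronectin moved 2180 without CD14 and 6670 in wild type. A set of 82 genes went one way without CD14 and the other way in wild type, 39 up and 43 down without CD14 (195 and 193 with the block). The genes named here were chosen from them after their values were seen. Irf8, a transcription factor that microglia need, was at 342, 326 and 339 CPM untreated and at 181, 179 and 207 CPM with fibronectin without CD14, and at 287 to 326 and 1667.6 to 2304.6 CPM in wild type (-0.83 ± 0.15 against 2.69 ± 0.15). Untreated levels were alike, and fibronectin took them apart. Hk2 changed by -1.05 and 3.00, and Trim25, a ubiquitin ligase of antiviral sensing, by -1.41 and 2.50. Mertk changed by -2.48 and 0.59, its wild-type rise being near the threshold (adjusted p = 0.0459). Ppargc1b (-1.79 against 3.59), Rgs1 (-1.38 against 2.24) and Rab19 (-1.63 against 1.94) moved likewise. In the other direction, Osgin1, an oxidative stress-induced growth inhibitor, rose by 1.26 ± 0.31 without CD14 and fell by 2.85 in wild type. Trib1 changed by 1.25 and -0.80, Zfp275 by 1.03 and -1.14, Sephs2, an enzyme of selenoprotein synthesis, by 1.25 and -0.70, C130039O16Rik by 0.81 and -2.40 and 2410066E13Rik by 1.63 and -0.64.

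**Figure D5:**
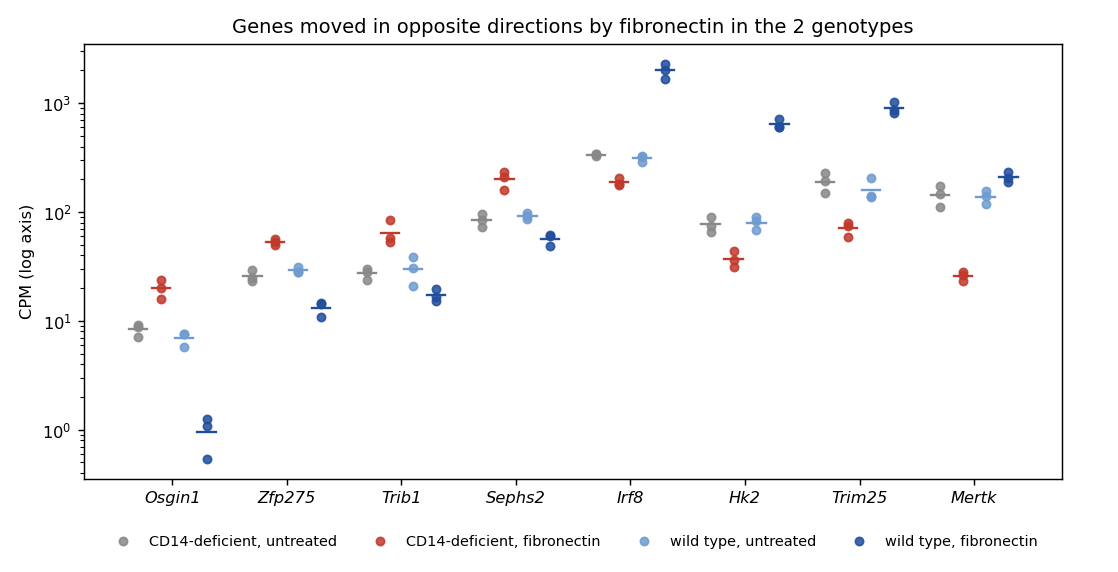
CPM on a log axis of 8 genes in untreated and fibronectin-treated libraries of both genotypes, each point a library and each bar the group mean. The 4 on the left rose without CD14 and fell in wild type, and the 4 on the right, Irf8 with 179 to 207 CPM against 1667.6 to 2304.6 CPM in treated cells among them, went the other way. The wild-type rise of Mertk was near the threshold (adjusted p = 0.0459 in edgeR).

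Fibronectin was also set directly against LPS at 10 ng/ml in CD14-deficient cells, to ask how both treatments compare in the same genotype. Of the genes tested, 1004 were higher and 1254 lower with fibronectin (7.55% and 9.43%, 17.0% in all). The count of 2258 was 1479 without fibronectin replicate 2, 1492 without LPS replicate 1, 1034 when only these 6 libraries were fitted and 5952 with the block (44.8%, 22.1% higher and 22.7% lower). Of the 1227 risen genes 550 stood lower with fibronectin than with LPS and 21 higher. Interferon-stimulated genes were lower in 41 of 44 cases, cytokines in 20 of 22, chemokines in 17 of 22, feedback inhibitors in 18 of 24 and NF-kB genes in 10 of 11, and none of these lists had a member higher (1 chemokine with the block).

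Il6 was at 109 to 336 CPM with LPS, lower with fibronectin by 6.45 on the log2 scale (adjusted p = 8.8e-06), and Tnf at 5036.4 to 6928.7 CPM with LPS (-2.29, adjusted p = 0.00145). Il1a (-5.46), Ccl17 (-5.92), Csf2 (-5.85) and Ccl22 (-5.61) were lower as well, Ccl17 and Csf2 from 5 and 27 counts in the fibronectin libraries. Cxcl1 was at 373 to 678 CPM with LPS (-3.33). Tlr2 (-0.38), Gpr84 (-0.84), Mertk (-0.26) and Rnf144b (-0.47) did not pass this test, but Gpr84 did with the block (adjusted p = 0.0175). Higher with fibronectin were genes that LPS took further down, Zfp36l2 (2.98), Cd300lb (2.96), E2f2 (2.92), Cxcr4 (2.90) and Bmf (2.76). E2f2 lost the call without fibronectin replicate 1 or 2 or LPS replicate 2 or 3 (adjusted p up to 0.114), and Cxcr4 without fibronectin replicate 3 or LPS replicate 1 (up to 0.0576). E2f2 (-0.99 ± 0.79) passed against untreated cells with the block alone (8.4e-04), and Zfp36l2 fell by 1.48 (SE 0.47) against them, but not without any library but untreated replicate 3 (up to 0.163).

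Against LPS at 0.1 ng/ml in the same genotype, fibronectin left 541 genes higher and 349 lower (4.07% and 2.63%, 6.69% in all). The count of 890 fell to 548 and 558 without fibronectin replicate 1 or 3, and to 527 and 560 without LPS replicate 2 or 3, the former having 8.21% of its counts on the ribosomal gene Rn45s against 0.0342% to 0.596% in the other CD14-deficient libraries. It was 1399 with DESeq2, 406 with only these 6 libraries and 4185 with the block (31.5%, 15.6% higher and 15.9% lower). NF-kB genes were higher in 9 of 11 cases, feedback inhibitors in 9 of 24, chemokines in 8 of 22, cytokines in 7 of 22 and interferon-stimulated genes in 4 of 44, with none lower (1 chemokine with the block). Tnf was at 157 to 205 CPM and Cxcl1 at 3.84 to 5.24 CPM with this dose. The genes furthest above were Ptges (3.79), Nos2 (3.61), Adm, a vasodilator peptide (3.60), Zfp811 (3.46) and Cxcl1 (3.45), and Rnf144b (-3.43), Arrdc3, Lpar6, Fbxo32 and Cnr2 stood furthest below. Fbxo32 lost the call without fibronectin replicate 1 or 3 (adjusted p up to 0.0712).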

How the data were processed

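RNA of primary microglia was extracted with Trizol, made into libraries with the TruSeq RNA kit and sequenced on a HiSeq2000, per the labels' protocols. The submitters' processing notes name Bowtie2 2.1.0, the counter HTSeq 0.5.4 and DESeq, with mm10 as the build, beside CASAVA 1.8.2 and FastQC 0.10.0. The deposited raw counts per gene are unnormalized. In the authors' normalized table (unit signal, 12889 genes) the values were the counts divided by 1 factor per library. Strand setting and annotation of the counting are not given in the sources used here.

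Counts were tested with edgeR 4.0.16 (R 4.3.3) on all 24 libraries in 8 groups, with TMM scaling, filterByExpr (minimum count 10, minimum total 15), robust quasi-likelihood fits with 16 residual degrees of freedom and Benjamini-Hochberg adjustment over 13294 genes. Fitted changes used a prior count of 0.125. The interval of a change is its 95% interval. The procedure was also run on simulated counts, which were drawn without a replicate effect. That run therefore does not bear on how the pairing of replicate numbers affects the calls. Totals were 14939019 to 20258255 counts in the 6 libraries, which limits the precision of genes with few reads, and counting intervals cover counting error only.

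Alternatives were a block on the replicate number nested in genotype, only the groups compared, DESeq2 1.42.0, limma 3.58.1 on log2 of the authors' normalized values plus 1, RLE scaling, other low-count filters, and leaving out each library. Deviations from the group means correlated at 0.825 to 0.969 between same-numbered libraries of 1 genotype (15 pairs) and at -0.752 to 0.059 between others (30 pairs). The numbers therefore pair libraries within a genotype, as seen from the data.

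The members and the gene lists were chosen with earlier results of these data known. Named genes were Cd14, Tnf, Il6, Il12b, Cxcl1, Cxcl10, Ccl5, Ifnb1 and Fn1, and, among called genes whose libraries did not overlap and whose higher group reached 5 CPM, the 15 that rose and the 10 that fell most. Each list added its 4 most changed called members, or fewer, and at most 2 uncalled ones, those highest with fibronectin. For the interaction and for each comparison with LPS, the 5 largest in each direction with at least 5 CPM were added. Other list members were named as examples after their values were seen. Some list members are counted but not reported here by name. Gene coordinates are from GENCODE for mm10, promoters from RefSeq GRCm38.p6.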

Additional observations from a re-analysis of the deposited data

Results flagged for a closer look

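Results were listed here where the response to fibronectin differed between CD14-deficient and wild-type cells by edgeR's test of the difference, the log2 change without CD14 minus that in wild type. This held for 3069 genes. Among the named genes the difference was -10.41 for Ifnb1, -9.78 for Pla1a (a fitted value, with 0 counts in untreated wild-type cells), -9.53 for Cxcl11, -9.11 for Serping1 and -9.04 for Lipg, all with a larger rise in wild type. Serping1 and Lipg lost the call without untreated CD14-deficient replicate 2 (adjusted p = 0.989 and 1).

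It was 5.45 for Bmf, 5.16 for Cd300lb, 4.11 for Sesn1 and 3.92 for Lyl1, all with a deeper fall in wild type. Among genes called in opposite directions in both genotypes it was 4.11 for Osgin1, 3.21 for C130039O16Rik, 2.26 for 2410066E13Rik, 2.18 for Zfp275, 2.06 for Trib1 and 1.95 for Sephs2, which rose without CD14. It was -5.37 for Ppargc1b, -4.05 for Hk2, -3.91 for Trim25, -3.61 for Rgs1, -3.57 for Rab19 and -3.52 for Irf8, which fell without CD14. What brought these differences about was not tested.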

How the results depend on the processing

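The count of genes called with fibronectin without CD14 (2180) was 1363 when only the groups compared were fitted, 5851 with the replicate block and 6161 with both, an alternative added after seeing the data. With the replicate block the interaction was called for 6553 genes, the comparison with LPS at 10 ng/ml for 5952, that with LPS at 0.1 ng/ml for 4185, and LPS at 10 ng/ml against untreated for 8776. With only the groups compared the counts against the higher and lower LPS dose were 1034 and 406, and DESeq2 gave 1399 for the lower. Leaving out 1 library gave 1479 to 1944 and 527 to 638. Where the replicate block changed the call of a gene named in the comparison with untreated cells, its value stands beside that gene. The cause of these shifts was not tested.

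Genes that did not pass and turned direction were Cd36 (0.032 with limma, 0.029 with the replicate block, 0.035 with the block on these groups only) and Klf6 (0.004 with only the groups compared). Leaving out 1 library gave changes of -0.082 to 0.058 for Adam8, -0.052 to 0.21 for B2m, -0.36 to 0.24 for Bst2, -0.11 to 0.31 for Calr, -0.76 to 1.03 for Ccl6, -0.007 to 0.295 for Cd14, -0.64 to 0.73 for Cd36, -0.27 to 0.034 for Cd86, -0.038 to 0.12 for Cx3cr1, -0.60 to 0.34 for Cxcl11, -0.28 to 1.803 for Fn1, -0.13 to 0.15 for Hsp90b1, -0.21 to 0.24 for Klf6, -0.41 to 0.23 for Ldha, -0.77 to 1.31 for Mki67, -0.69 to 0.14 for Plau, -1.63 to 1.71 for Serping1, -0.60 to 0.003 for Tlr9 and -0.57 to 1.04 for Top2a. With 3 libraries a group, genes with few counts have wide intervals.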
